A study of Homo sapiens with 6 samples.

Results

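The genes described here encode the ATR and ATM checkpoint of S phase and the enzymes it acts on. They were 10 genes chosen by name, ATR, ATRIP, ATM, CHEK1, CHEK2, WEE1, CDC25A, CLSPN, TOPBP1 and RAD9A, and all 10 were found among the 16197 genes of the deposited table. RNA had been sequenced from Panc1, an established line of human pancreatic ductal carcinoma cells, kept in DMEM with fetal bovine serum and given either the solvent DMSO or BRQ. BRQ is taken to be brequinar, since the title of the series speaks of inhibiting DHODH, which supplies orotate for pyrimidine synthesis in mitochondria and is the target of brequinar. There were 3 libraries per group, all of this line. The sources used here state neither the dose nor the length of treatment. Separate cultures are not mentioned in the labels. The p-values set the difference between groups against the spread of these libraries within a group, and that spread may be only technical.

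ATR is a kinase recruited by its partner ATRIP to single-stranded DNA that the protein RPA coats, as forms when replication forks stall. A sliding clamp that contains RAD9A brings TOPBP1, which switches ATR on, and claspin, the product of CLSPN, carries the signal to the kinase CHEK1. ATM responds to double-strand breaks and acts through CHEK2. CHEK1 and CHEK2 restrain the CDC25 phosphatases, which remove an inhibitory phosphate from CDKs, and WEE1 is the kinase that puts that phosphate on. A lack of nucleotides is a textbook cause of stalled forks. The checkpoint runs on protein phosphorylation, which RNA levels do not show.

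Values are FPKM, fragments scaled to transcript length and to the library total. A mean level is given ± SD with n = 3 libraries. Changes are differences of log2(FPKM + 1), BRQ less DMSO, ± SE. The p-values come from limma and were adjusted over the 10689 genes whose mean reached 1 FPKM, with a threshold of 0.05. The scale understates changes of genes near 1 FPKM. From the steps between low values, relative depth was 0.959 to 0.986 in DMSO and 1.02 to 1.03 in BRQ. At the rough absolute depth estimated from those steps, a value of the 10 genes rested on roughly 428 to 6642 fragments.

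The cells carried epithelial RNA, with 6 of 6 keratin, EPCAM and MUC1 markers above a mean of 1 FPKM and a summed level of 2396 to 2521 FPKM in DMSO and 2267 to 2406 in BRQ. Of these, KRT7 lay close to that cut, at 1.13 to 1.39 FPKM, and the others were at 33.4 FPKM or more in every library. The summed level of 3 mesenchymal markers, nearly all of it VIM, was 1866 to 1918 FPKM in DMSO and 871 to 909 in BRQ. VIM went from 1870 to 880 FPKM by group means and ZEB1 from 15.9 to 17.2 FPKM to 5.87 to 6.42. The third marker, CDH2, was at most 0.0193 FPKM in any library. The part of the change in VIM and ZEB1 in the results below was not tested. None of 3 endothelial markers reached a mean of 1 FPKM (sums of 0.084 to 0.26 FPKM). Of 5 fibroblast and 5 leukocyte markers, LUM (51.6 to 53.4 FPKM in DMSO and 76.8 to 81.5 in BRQ) and CD68 (104 to 110 and 155 to 164 FPKM) were high, LYZ stood at 1.28 to 2.79 FPKM, and PTPRC, which defines leukocytes, was at most 0.153 FPKM. CDKN2A, which this line is generally described as lacking, stood at 44.2 to 49.4 FPKM in DMSO. BRQ libraries 1 and 2 stood apart by HBB, at 64.2 and 32.8 FPKM against 0.739 FPKM in BRQ library 3 and 0.0488 to 0.677 FPKM in DMSO, so each call below was repeated without them. That leaves 1 BRQ library, whose spread is assumed to be that of the DMSO libraries.

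Cells given BRQ had more RNA for claspin, for the phosphatase CDC25A and for the clamp subunit RAD9A, and less for the kinases CHEK2 and ATM. CLSPN and CDC25A were about 2-fold up (2.56-fold and 2.08-fold by group means), RAD9A rose by 1.66-fold and ATRIP by 1.29-fold, while CHEK2 was at 0.659 and ATM at 0.704 of their DMSO means. ATR, CHEK1, WEE1 and TOPBP1 did not pass the test. Of the 10 genes 6 thus passed, 4 higher and 2 lower. Of all tested genes 62.1% passed, 36.9% as higher and 25.2% as lower, so the share of checkpoint genes that changed was near that of all genes, and their median log2 fold change was -0.07 against 0.06 for all genes tested. In 6 of the 10 genes the groups did not overlap, with BRQ above in 4 and below in 2, against 67.2% of all tested genes, 39.3% with BRQ above and 27.9% with BRQ below. In bulk RNA, more cells in S phase and more RNA per cell cannot be told apart.

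**Figure D1:**
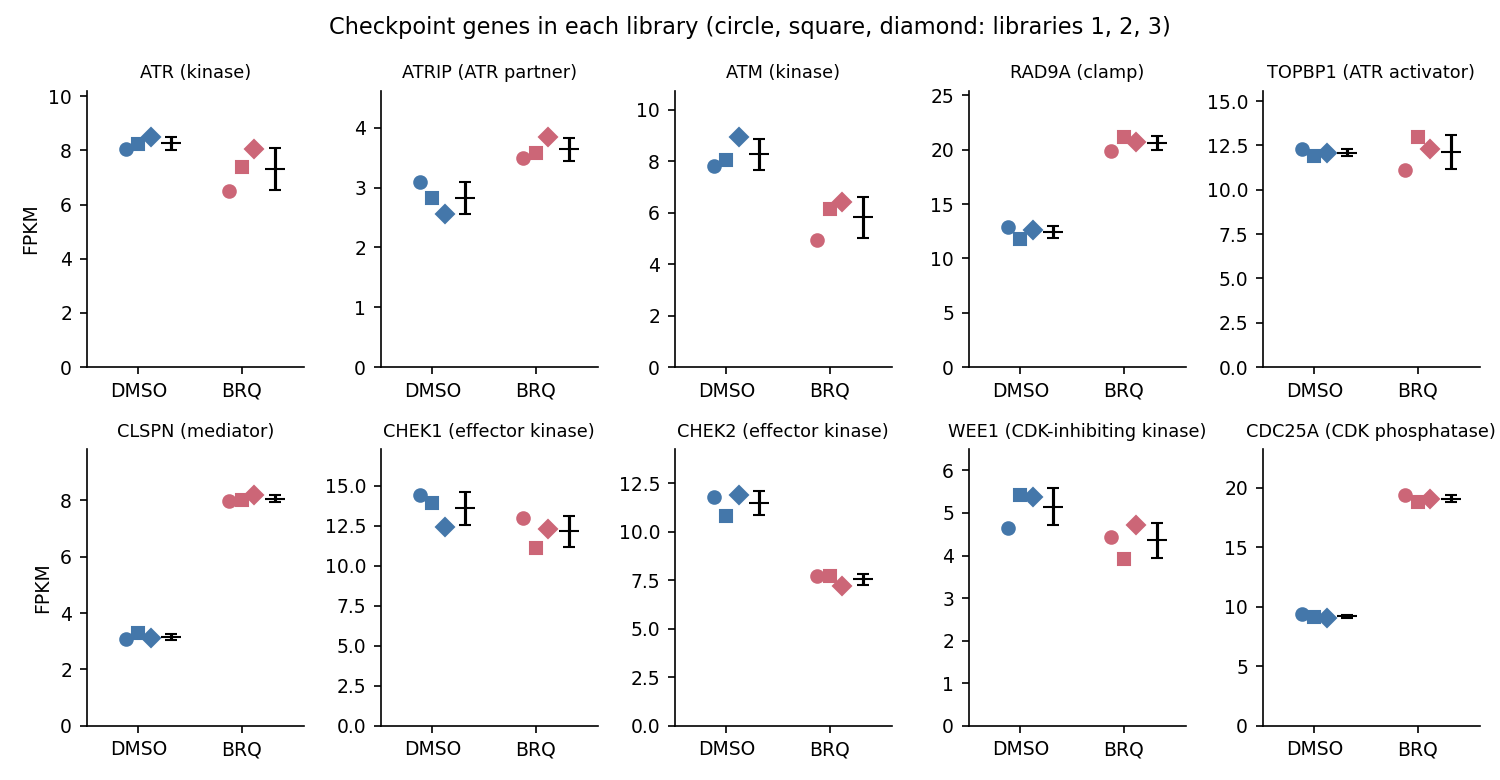
FPKM of the 10 checkpoint genes in each library, with DMSO in blue and BRQ in red and the symbols marking libraries 1, 2 and 3; the black bar beside each group is its mean ± SD (n = 3). CLSPN, CDC25A, RAD9A and ATRIP have every BRQ library above every DMSO library, CHEK2 and ATM every BRQ library below, and in ATR, CHEK1, WEE1 and TOPBP1 the groups overlap.

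The promoters of the genes with the largest rises are shown because both hold letters of the E2F binding motif, the factor family that drives many G1/S genes. Windows of 250 bases before to 50 after the start site, from RefSeq (GRCh38.p14), were found for 9 of the 10 genes, some with several windows, and not for WEE1. They were searched on both strands for TTTCCCGC, TTTCGCGC, TTTGCCGC and TTTGGCGC. The windows of CHEK1 begin at base 125625974 or later, inside the gene as placed here (from 125625136). The bases before the start of CHEK1 were thus not searched. A match was found in CDC25A, CLSPN and TOPBP1, whose windows lie at chr3:48188368-48188667, chr1:35769929-35770228 and chr3:133661892-133662191, all on the minus strand. The sequences run 5′ to 3′ along the gene, with the match in capitals.
CDC25A: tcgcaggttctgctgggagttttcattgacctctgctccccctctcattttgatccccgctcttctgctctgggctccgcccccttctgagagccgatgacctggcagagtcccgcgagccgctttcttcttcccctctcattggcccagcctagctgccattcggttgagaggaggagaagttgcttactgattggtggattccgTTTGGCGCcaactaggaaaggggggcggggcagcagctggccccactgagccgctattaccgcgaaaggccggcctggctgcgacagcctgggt
CLSPN: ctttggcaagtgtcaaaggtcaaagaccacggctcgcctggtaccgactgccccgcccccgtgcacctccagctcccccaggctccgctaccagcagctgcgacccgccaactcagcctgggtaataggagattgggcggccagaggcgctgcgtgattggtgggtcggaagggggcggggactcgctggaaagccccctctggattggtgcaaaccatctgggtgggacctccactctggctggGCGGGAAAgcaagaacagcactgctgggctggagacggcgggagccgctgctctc
TOPBP1: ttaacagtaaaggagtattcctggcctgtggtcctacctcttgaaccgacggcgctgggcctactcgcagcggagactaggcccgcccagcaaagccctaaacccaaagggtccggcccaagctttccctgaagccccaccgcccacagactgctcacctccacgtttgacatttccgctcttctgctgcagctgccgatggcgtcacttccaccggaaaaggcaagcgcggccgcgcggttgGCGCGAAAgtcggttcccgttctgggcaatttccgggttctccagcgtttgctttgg
The match began 44 bases before the start site in CDC25A, 5 bases before it in CLSPN and 7 bases before it in TOPBP1, where it lies on the other strand in the last 2. Of the windows of tested genes 5.1% held such a match, and of all 35116 windows 3.3%. CDC25A and CLSPN rose and TOPBP1 did not pass the test, and RAD9A and ATRIP rose with no match in these windows. CCAAT, a box common in promoters of cell cycle genes, was in windows of ATRIP, ATM, CHEK1, CHEK2, CDC25A, CLSPN and RAD9A and in 35% of windows of tested genes. TTTGAA, the core letters of an element of late cell cycle genes, was in a window of ATM alone among the 9 genes and in 10.2% of windows of tested genes. A match is a description of letters and shows no binding.

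At the top of the pathway, ATR and ATM stood at the same mean FPKM in DMSO, and ATM moved further. ATR lies on chromosome 3 from 142449235 to 142578733 and was at 8.04, 8.25 and 8.51 FPKM in DMSO and 6.52, 7.39 and 8.05 in BRQ. The groups overlapped, with BRQ library 1 lowest, and the log2 fold change of -0.16 ± 0.08 did not pass (adjusted p = 0.0877, 95% interval -0.33 to 0.01). ATM, on chromosome 11 from 108223067 to 108369102, was at 7.80, 8.06 and 8.96 FPKM in DMSO and 4.93, 6.14 and 6.41 in BRQ. Every BRQ library lay below every DMSO library, and the log2 fold change was -0.45 ± 0.09 (adjusted p = 0.00139), and -0.32 (adjusted p = 0.0235) without BRQ libraries 1 and 2. ATRIP, the partner that takes ATR to RPA, went the other way. It lies on chromosome 3 from 48446737 to 48467645 and stood at 3.09, 2.82 and 2.55 FPKM in DMSO and 3.49, 3.57 and 3.85 in BRQ (log2 fold change 0.28 ± 0.08, adjusted p = 0.0101; 0.35 and adjusted p = 0.0386 without BRQ libraries 1 and 2). The groups did not overlap. ATR passed as lower under each of 3 other scalings of the libraries (log2 fold change -0.21 to -0.23, adjusted p 0.0291 to 0.0460) and without BRQ library 3 (-0.22, adjusted p = 0.0310), and over all 17 alternatives its adjusted p ran from 0.0291 to 0.772.

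Claspin had the largest rise of the 10 genes and RAD9A the third largest, while TOPBP1, which links clamp and kinase, was level. CLSPN, on chromosome 1 from 35720213 to 35769978, stood at 3.07, 3.28 and 3.10 FPKM in DMSO and 7.97, 8.03 and 8.19 in BRQ. The libraries of each group lay close together and far from the other group, and the log2 fold change was 1.13 ± 0.06 (adjusted p = 2.53e-07). Of all tested genes 99.0% had a lower log2 fold change, and 1.55% were called higher with a log2 fold change of at least 1, as CLSPN was. None of the 10 genes was called lower by that much, as 0.412% of tested genes were. RAD9A, on chromosome 11 from 67391986 to 67398412, was at 12.9, 11.8 and 12.6 FPKM in DMSO and 19.9, 21.2 and 20.7 in BRQ (log2 fold change 0.69 ± 0.05, adjusted p = 2.05e-06), again with no overlap. TOPBP1, on chromosome 3 from 133600238 to 133661941, was at 12.3, 11.9 and 12.1 FPKM in DMSO and 11.1, 13 and 12.3 in BRQ. Its groups overlapped, the log2 fold change was 0.00 ± 0.06 (adjusted p = 0.963) and the 95% interval ran from -0.14 to 0.14. Without BRQ libraries 1 and 2 the log2 fold changes of CLSPN and RAD9A were 1.15 and 0.70 (adjusted p = 3.56e-05 and 1.24e-04).

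Of the effector kinases, CHEK2 fell and CHEK1 did not pass. CHEK2, on chromosome 22 from 28687742 to 28741834, stood at 11.8, 10.8 and 11.9 FPKM in DMSO and 7.75, 7.71 and 7.23 in BRQ. Every BRQ library was below every DMSO library, and the log2 fold change was -0.54 ± 0.06 (adjusted p = 2.83e-05), and -0.60 (adjusted p = 5.23e-04) without BRQ libraries 1 and 2. Only 5.2% of tested genes had a lower log2 fold change. CHEK1, on chromosome 11 from 125625136 to 125681124, was at 14.4, 13.9 and 12.4 FPKM in DMSO and 13, 11.1 and 12.3 in BRQ, with overlapping groups. Its log2 fold change was -0.14 ± 0.07 (adjusted p = 0.107, 95% interval -0.30 to 0.02). It passed as lower under the 3 other scalings (-0.20 to -0.21, adjusted p 0.0243 to 0.0317), without DMSO library 3 (-0.20, adjusted p = 0.0395) and without BRQ library 1 (-0.19, adjusted p = 0.0488), and over all 17 alternatives its adjusted p ran from 0.0243 to 0.597.

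At the CDK switch, RNA of the activating phosphatase CDC25A rose and that of the opposing kinase WEE1 did not. Their relatives, described below, were mixed. The phosphatase CDC25C and the kinase PKMYT1 rose (log2 fold changes 0.78 and 0.92), and the phosphatase CDC25B was at -0.02. CDC25A, on chromosome 3 from 48157146 to 48188417, was at 9.36, 9.11 and 9.09 FPKM in DMSO and 19.4, 18.8 and 19.1 in BRQ. The spread within a group was small beside the gap, and the log2 fold change was 0.98 ± 0.05 (adjusted p = 1.47e-07), and the same value (adjusted p = 1.92e-05) without BRQ libraries 1 and 2. WEE1, on chromosome 11 from 9573670 to 9589985, was at 4.65, 5.42 and 5.38 FPKM in DMSO and 4.43, 3.92 and 4.72 in BRQ, with BRQ library 3 above DMSO library 1. Its log2 fold change of -0.20 ± 0.08 did not pass (adjusted p = 0.0567, 95% interval -0.38 to -0.02). It passed as lower in 7 of 16 alternatives, among them the 3 scalings (-0.25 to -0.28) and both corrections for genomic span (-0.24 and -0.29), and its adjusted p ran from 0.0102 to 0.469.

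**Figure D2:**
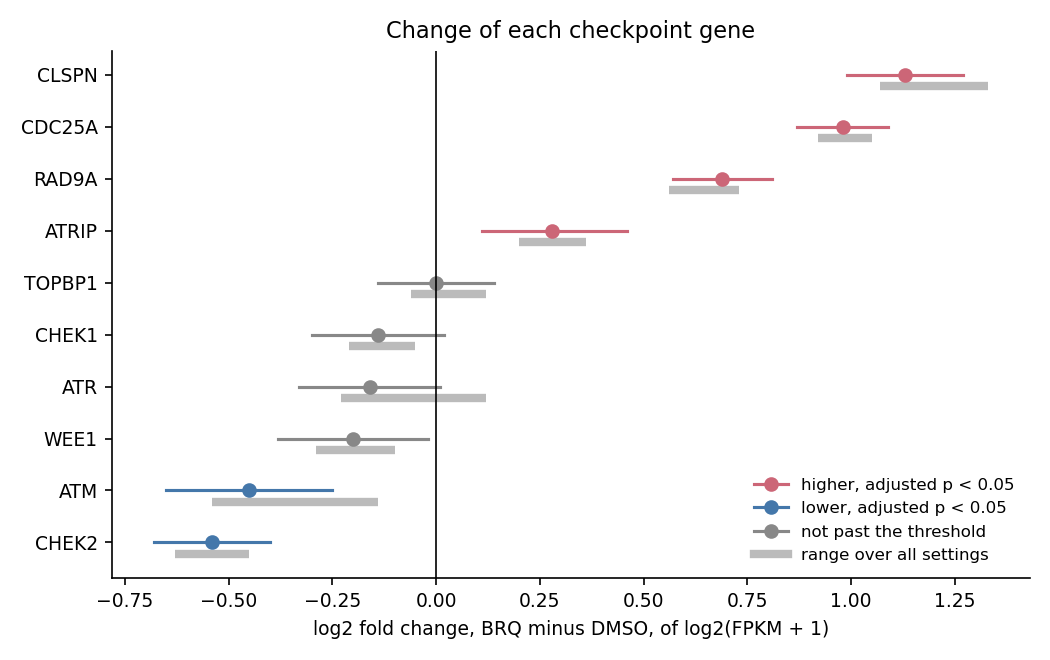
Log2 fold change (BRQ minus DMSO, of log2(FPKM + 1)) of each checkpoint gene with its 95% interval, coloured by the limma call at an adjusted p of 0.05, and in grey the range over all settings tried. CLSPN at 1.13 and CDC25A at 0.98 lie farthest right, CHEK2 at -0.54 and ATM at -0.45 farthest left, and the grey range crosses 0 for TOPBP1 and ATR.

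Ratios between genes of the same library do not depend on its scaling, other than through the added 1 FPKM, and 4 pairs were compared. The ratios listed are of FPKM itself. The log2 ratios and their differences were taken after 1 FPKM was added to each gene, so they are not the logs of the listed ratios. The CDC25A to WEE1 ratio of FPKM was 2.01, 1.68 and 1.69 in DMSO and 4.37, 4.79 and 4.04 in BRQ, so the phosphatase gained on the kinase in every library (difference of the log2 ratio 1.18, from 0.73 ± 0.12 to 1.91 ± 0.10). The CHEK1 to CHEK2 ratio went from 1.22, 1.29 and 1.04 to 1.68, 1.45 and 1.70, a difference of 0.40 on the log2 scale. ATR to ATM was 1.03, 1.02 and 0.949 in DMSO and 1.32, 1.2 and 1.26 in BRQ (difference 0.29). ATR to ATRIP was 2.61, 2.92 and 3.34 in DMSO and 1.87, 2.07 and 2.09 in BRQ (difference -0.44). After removal of the trend with genomic span this difference was -0.14, with an exact two-sided permutation p of 0.2. Without that removal the groups did not overlap in any of the 4 pairs. The exact two-sided permutation p was then 0.1 for each (also 0.1 adjusted over the 4 pairs), the smallest that 3 libraries against 3 can give.

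**Figure D3:**
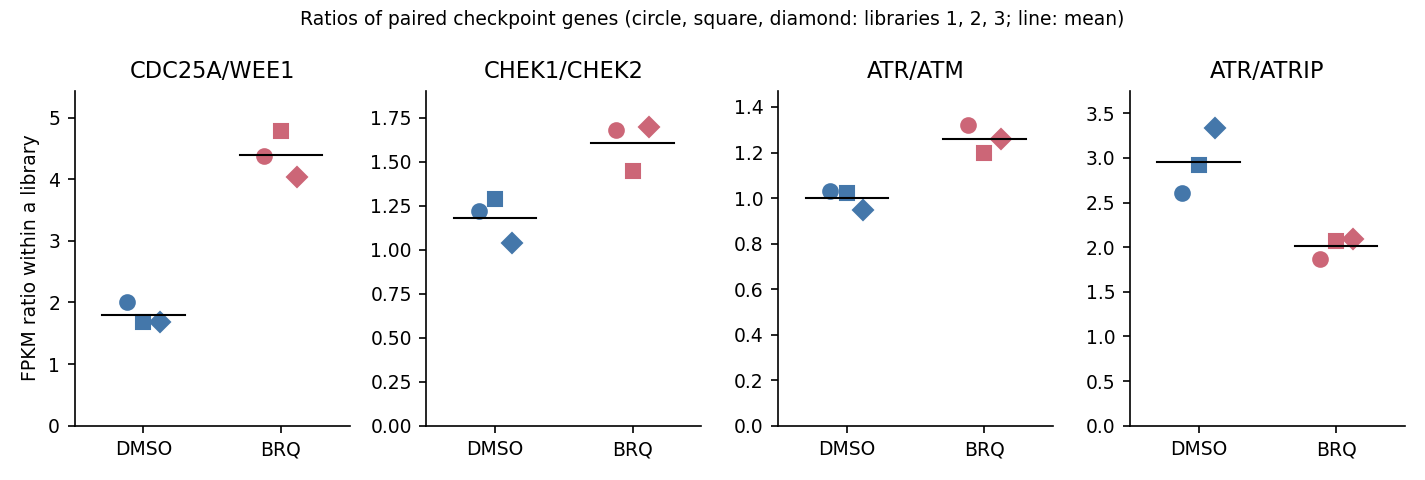
Ratio of FPKM between paired checkpoint genes within each library, with symbols marking libraries 1, 2 and 3 and a line at the group mean (n = 3). The CDC25A to WEE1 ratio is 1.68 to 2.01 in DMSO and 4.04 to 4.79 in BRQ, and in each of the 4 pairs the groups lie apart.

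Since FPKM is scaled to length, mean FPKM is ordered here across genes. The gene lengths behind it are not given in the sources used here, so close ranks may depend on them. Reads shared with neighbours or pseudogenes, described below, may also shift a rank. In DMSO the order of mean FPKM was CHEK1 (13.5), RAD9A (12.4), TOPBP1 (12.1), CHEK2 (11.5), CDC25A (9.19), ATM and ATR (both 8.27), WEE1 (5.15), CLSPN (3.15) and ATRIP (2.82). Ranges of neighbours overlapped from CHEK1 down to CHEK2, between ATM and ATR and between CLSPN and ATRIP. In BRQ the order was RAD9A (20.6), CDC25A (19.1), TOPBP1 and CHEK1 (both 12.2), CLSPN (8.06), CHEK2 (7.56), ATR (7.32), ATM (5.83), WEE1 (4.36) and ATRIP (3.64), with overlap between TOPBP1 and CHEK1 and between CHEK2 and ATR. CLSPN, near the bottom in DMSO, was thus above CHEK2 in BRQ, and CDC25A moved from below CHEK1 to above it.

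The genes differ in genomic span, and change moved with span over all genes. The median log2 fold change of tested genes was 0.19 in those spanning under 10 kb, 0.15 from 10 to 30 kb, 0.04 from 30 to 100 kb and -0.22 over 100 kb, where 8.99% were called higher and 54.6% lower. ATM (146.0 kb) and ATR (129.5 kb) belong to the longest class and RAD9A (6.4 kb) to the shortest. When each library's trend with span was removed, ATM was at -0.19 (adjusted p = 0.0342) or, with the other centring, at -0.14 (adjusted p = 0.102), where its call ended, and ATR turned to 0.07 and 0.12 (adjusted p = 0.351 and 0.0973). ATRIP (20.9 kb) was at 0.20 (adjusted p = 0.0535) and at 0.26 (adjusted p = 0.0183). CHEK2 (54.1 kb), at -0.50 and -0.45, and CLSPN (49.8 kb), at 1.15 and 1.21, lay far from the median of their span class and kept their calls, as did CDC25A (0.94 and 0.99) and RAD9A (0.56 and 0.61). The part of span in the results of ATM and ATR was not tested beyond these corrections.

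**Figure D4:**
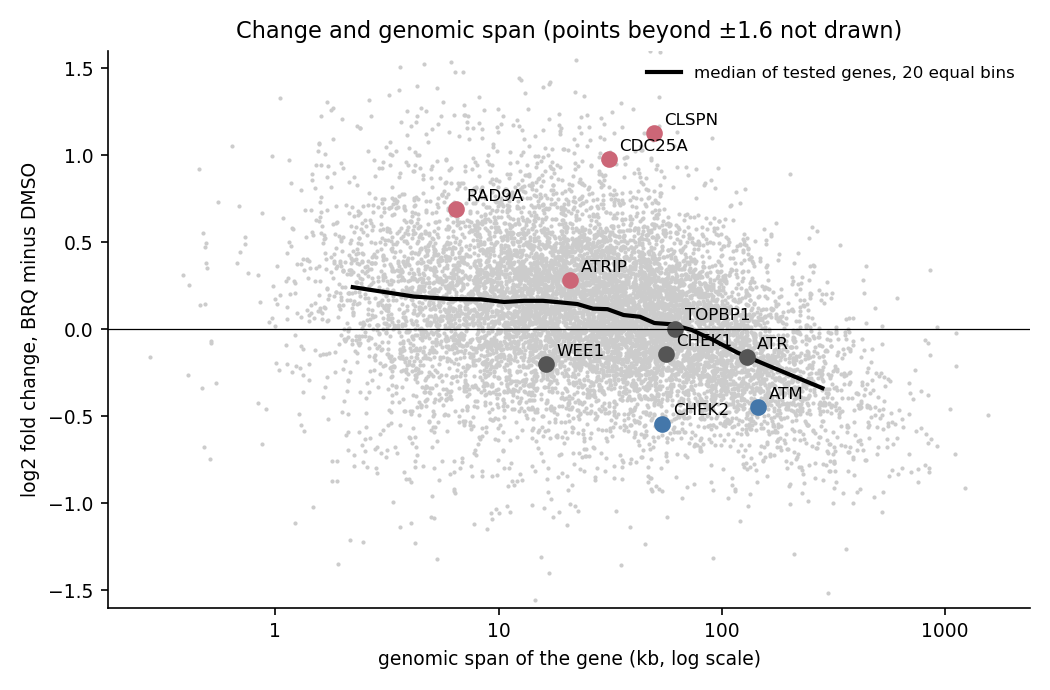
Log2 fold change (BRQ minus DMSO) of tested genes against genomic span (log axis, kb), with the running median as a black line and the 10 checkpoint genes as large points coloured by call. ATR lies on the median line at its span, ATM and CHEK2 lie below the line at theirs, and CLSPN, CDC25A and RAD9A far above.

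Some of the 10 genes share exons with neighbours in GENCODE 29, and the strand setting of the counting was not given in the sources used here, so reads there cannot be told apart. RAD9A shares 228 exon bases with PPP1CA on the other strand, a phosphatase gene at 166 ± 5.49 FPKM in DMSO and 211 ± 6.53 in BRQ (log2 fold change 0.35 ± 0.04, limma adjusted p = 3.65e-05). ATRIP shares 1515 exon bases with TREX1 on the same strand, where a strand setting would not separate their reads. TREX1 was not found by name among the 16197 genes, and its part in the rise of ATRIP was not tested. CHEK1 shares 80 bases with STT3A, also on the same strand (110 ± 0.443 FPKM in DMSO and 122 ± 3.60 in BRQ), and ATM shares 114 with C11orf65, which was at most 0.198 FPKM. CLSPN shares 280 exon bases with the antisense gene AL354864.1 and ATR 2048 with the pseudogene AC109992.1 on the other strand, neither of them found by name among the 16197 genes. CHEK2 has pseudogene copies of part of its sequence, which may have taken some of its reads. ATM starts beside NPAT, a coactivator of histone genes read from the other strand that shares 143 exon bases with ATM. NPAT was at 5.34, 5.57 and 5.92 FPKM in DMSO and 5.75, 5.83 and 6.65 in BRQ. It did not pass (log2 fold change 0.10 ± 0.07, adjusted p = 0.271), and its difference from ATM was not tested.

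Around these 10 genes, 6 lists of checkpoint genes held 73 tested genes, of which 33 rose, 23 fell and 17 did not pass. Their median log2 fold change was 0.10. The lists were chosen with earlier results of these data known, and they are described by counts only, beside 36.9% higher and 25.2% lower among all tested genes.

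Genes that load or read the clamp and activate ATR rose in 7 of 12 cases and fell in 2, with a median log2 fold change of 0.37. The clamp loader subunits RFC5 and RFC2, of the complex that in checkpoint form works with RAD17, rose from 18.2 to 21.0 FPKM in DMSO to 45.4 to 48.5 in BRQ and from 25.8 to 27.9 to 55.1 to 64.9 (log2 fold changes 1.23 ± 0.06 and 1.16 ± 0.06, adjusted p = 7.35e-08 and 1.80e-07). Of the other loader subunits in the list, RFC4 rose by 0.56 ± 0.09 (limma adjusted p = 4.18e-04) and RFC3 was at -0.06 (adjusted p = 0.551). RPA2 and RPA1, which coat single-stranded DNA, rose by 0.86 ± 0.06 and 0.66 ± 0.05 on the log2 scale, and RPA3 was at -0.07 (adjusted p = 0.446). The partners of RAD9A in the clamp are HUS1 and RAD1, and their differences from RAD9A were not tested. HUS1 fell from 8.37, 8.75 and 10.2 FPKM to 5.86, 6.72 and 6.96 (-0.42 ± 0.08, adjusted p = 0.00117), and RAD1 rose, with every BRQ library above every DMSO library, at 0.19 ± 0.06 (adjusted p = 0.0212), a call held in 8 of 17 alternatives (adjusted p up to 0.315; not under the 3 other scalings, the span corrections, or without DMSO library 1, DMSO library 3, BRQ library 2 or BRQ libraries 1 and 2). RAD17, the loader's own subunit, was at -0.15 (adjusted p = 0.0946). ETAA1, which activates ATR by a route apart from TOPBP1, fell from 4.43, 4.44 and 4.74 FPKM to 2.90, 2.58 and 2.21 (-0.64 ± 0.09, adjusted p = 8.02e-05). RHNO1, which acts with the clamp and TOPBP1 in ATR activation, rose by 0.60 ± 0.06 (adjusted p = 8.34e-06).

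Among fork protection genes and partners of claspin, some rose and some fell. TIMELESS, which travels with the fork, went from 20.2, 21.2 and 20.8 FPKM to 33.3, 32.8 and 33.4 (log2 fold change 0.65 ± 0.04, adjusted p = 7.01e-07), and its binding partner TIPIN from 1.67, 2.25 and 2.38 to 4.47, 4.37 and 3.60 (0.73 ± 0.11, adjusted p = 1.42e-04). The replication initiation factors MCM10 and CDC45 rose by 0.79 ± 0.07 and 0.76 ± 0.06. Of the 12 listed genes 10 were tested, of which 5 rose, 3 fell and 2 did not pass, with a median of 0.32. The fifth to rise was DONSON, a replication fork protein, at 0.61. Those that fell were DBF4, the activating subunit of the kinase CDC7, by 0.28 on the log2 scale (adjusted p = 0.00834, lower in 17 of 17 alternatives), SMARCAL1, which remodels stalled forks, by 0.21 and WDHD1, a replisome protein, by 0.18. CDC7 was at 0.04 (adjusted p = 0.805) and HLTF at -0.09 (adjusted p = 0.231). The count of falls was 1 when the span trend was removed with either centring, and without DMSO library 1, DMSO library 2, BRQ library 2, BRQ library 3 or BRQ libraries 1 and 2.

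In the ATM and break-signalling list 6 of 14 genes rose and 4 fell, with a median of 0.13, and 2 fell without BRQ libraries 1 and 2. RAD50, a core subunit of the complex that calls ATM to breaks, fell from 21.3, 20.9 and 20.4 FPKM to 11.4, 11.8 and 11.9 (log2 fold change -0.78 ± 0.05, adjusted p = 4.79e-07). Its partner MRE11 fell by 0.30 on the log2 scale (adjusted p = 0.00908), a call that ended under either span correction or without BRQ libraries 1 and 2 (adjusted p up to 0.286). NBN, the other subunit, was at 0.14 (adjusted p = 0.0661). H2AX, the histone that ATM and ATR mark at breaks, rose from 54.2, 50.5 and 47.3 FPKM to 90.2, 82.4 and 81.8 (0.73 ± 0.06, adjusted p = 1.78e-06). RBBP8, which starts resection of breaks, and the ubiquitin ligase RNF8 rose by 0.63 ± 0.07 and 0.58 ± 0.07.

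ATR and ATM belong to a family of large kinases that need the TELO2 complex to fold. Their relatives SMG1, TRRAP (which lacks kinase activity) and PRKDC fell by 0.60, 0.33 and 0.25 on the log2 scale (adjusted p = 5.65e-04, 0.00457 and 0.0179), and MTOR was at 0.19 (adjusted p = 0.0585). TRRAP did not pass under either span correction, and PRKDC passed in 10 of 17 alternatives, with log2 fold changes of -0.32 to 0.11; it did not pass under the span corrections, with no filter, or without DMSO library 2, DMSO library 3, BRQ library 1 or BRQ libraries 1 and 2. TELO2, TTI1 and TTI2, the assembly complex, rose by 0.75 ± 0.07, 0.66 ± 0.05 and 0.48 ± 0.08, with TELO2 at 12.4, 13.1 and 11.8 FPKM in DMSO and 22.4, 22.7 and 19.7 in BRQ. RUVBL1, an ATPase that works with them, fell by 0.51 on the log2 scale and RUVBL2 was at 0.02 (adjusted p = 0.779). Of the 10 genes 3 rose and 4 fell, and the median was -0.02. The count of falls was 2 under 1 span correction.

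Among genes of CDKs, their cyclins and their regulators that the checkpoint acts on, 7 of 9 rose and 1 fell, with a median of 0.69. The smallest rise was that of the cyclin CCNA2 (0.17, limma adjusted p = 0.0289). It held in 6 of 17 alternatives, and not under the 3 scalings or either span correction. The fall was that of CCNB1, a mitotic cyclin (-0.25 ± 0.08, adjusted p = 0.0205), whose groups overlapped. The count of falls was 0 with no filter and without DMSO library 1, DMSO library 2, BRQ library 2 or BRQ library 3, and 2 under 1 span correction. Besides CDC25A, the phosphatase CDC25C rose from 2.83 to 3.15 FPKM to 5.34 to 6.31 (log2 fold change 0.78 ± 0.08, adjusted p = 9.19e-06), and CDC25B was at -0.02 ± 0.04 (adjusted p = 0.635). PKMYT1, the membrane-bound relative of WEE1, rose from 20.7, 22.4 and 22.6 FPKM to 45.9, 41.1 and 40.0 (0.92 ± 0.06, adjusted p = 5.28e-07). CCNE1 and CCNE2, cyclins that drive entry into S phase, had log2 fold changes of 1.44 and 2.07.

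CDKN1A, an inhibitor of CDKs, went from 171 to 173 FPKM in DMSO to 194 to 197 in BRQ (log2 fold change 0.18 ± 0.03, limma adjusted p = 9.33e-04), and 1 of 2 span corrections ended that call (adjusted p = 0.0590). It is 1 gene of a list not reported as a whole here, whose genes went both ways, and does not stand for that list.

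Genes for turnover and shut-off of checkpoint proteins fell in 9 of 18 cases and rose in 5, with a median of -0.13. PLK1, the mitotic kinase that marks claspin and WEE1 for breakdown, fell by 0.87 on the log2 scale (adjusted p = 3.75e-07), and SKP1, a subunit of the ubiquitin ligase that removes claspin and CDC25A, rose by 0.64 (adjusted p = 5.02e-06). The large ligase HUWE1 and the ligase subunit FBXW7 fell by 0.40 and 0.39, and both calls ended under each span correction, that of FBXW7 also without BRQ libraries 1 and 2. The count of falls was 4 and 3 under the span corrections, and that of rises was 1 under each of the 3 scalings and 2 to 4 with 1 library left out, 2 without BRQ library 2.

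**Figure D5:**
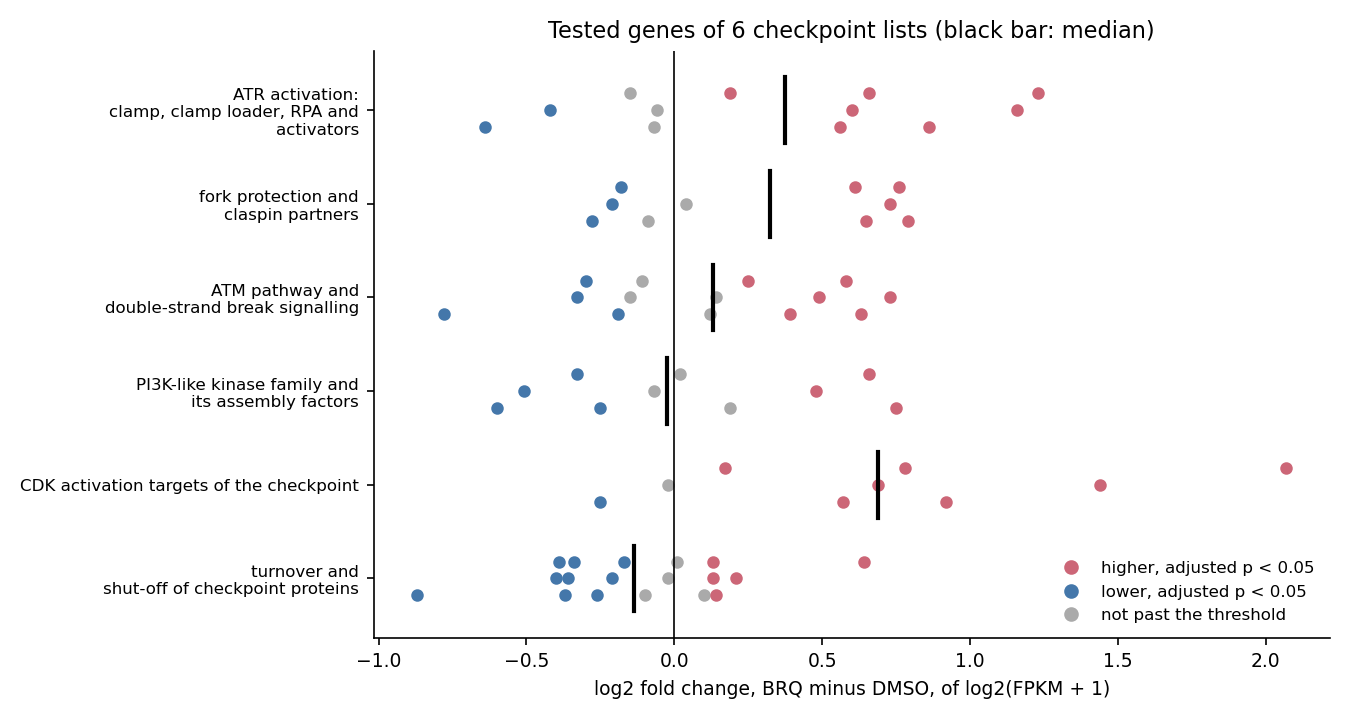
Log2 fold change (BRQ minus DMSO, of log2(FPKM + 1)) of the tested genes of 6 checkpoint lists, coloured by the limma call, with a black bar at each list's median. Medians run from -0.13 for turnover and shut-off genes to 0.69 for CDK activation targets, and each list holds genes called in both directions, in the CDK list through 1 gene, CCNB1, whose call ended in 5 of 17 alternatives.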

How the data were processed

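RNA from 3 DMSO and 3 BRQ libraries of Panc1 cells was compared, grouped by sample title. Per the submitters' processing notes, reads were handled with fastp and HTSeq on hg38; the sources used here do not give the aligner, annotation or gene lengths. The authors deposited 1 table of FPKM per gene and library, and all its per-library columns were used. No count model was run on these normalized values. FPKM is relative to the library total, so abundant genes that rise lower the others.

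The 10689 genes averaging 1 FPKM or more entered limma (version 3.58.1, R 4.3.3) as log2(FPKM + 1), with treatment as the sole term and an eBayes trend; tests were two-sided and Benjamini-Hochberg adjusted over all of them. The procedure was tested on simulated data, and the outcome is not reported here. Of 16197 genes, 16154 matched RefSeq (GRCh38.p14) by Entrez number, which gave positions and spans. Exon lengths and overlaps are from GENCODE 29. Relative depth came from 1459 genes under 0.3 FPKM, of which 87.9% were whole multiples of a step within 0.02 of a fragment; the absolute depth is rough. Motifs were searched as exact letters. Also tried were scaling by trimmed means, by TPM and by median of ratios, robust variance, a block for replicate number, adding 0.1 in place of 1, dropping the filter or raising it to 5 FPKM, removal of each library's trend with genomic span (2 centrings), and leaving out libraries.

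The members, lists and tests were chosen with earlier results of these data known. Named were the 10 members, NPAT, TREX1, fixed partners (RAD1, HUS1, RAD17, ETAA1, TIMELESS, TIPIN, CDKN1A) and, per list, up to 4 genes past the threshold with the largest change and no overlap. Other genes named beside them were chosen after their values were seen. A further list is not reported as a whole here. Figures were drawn with matplotlib 3.10.9.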

Additional observations from a re-analysis of the deposited data

How the results depend on the processing

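Over the 17 alternatives CLSPN, CDC25A, RAD9A and CHEK2 passed in their direction each time, with log2 fold changes of 1.07 to 1.33, 0.92 to 1.05, 0.56 to 0.73 and -0.63 to -0.45. ATRIP passed in 15 of 16 (0.20 to 0.36) and ATM in 16 of 17 (-0.54 to -0.14). The count of checkpoint genes called lower, 2 as reported, was 5 under each of the scalings by trimmed means, TPM and median of ratios, where ATR, CHEK1 and WEE1 joined, and 2 to 4 when 1 library was left out, with 4 without BRQ library 3. TPM scaling also changes the weight of the added 1. ATR turned to 0.07 and 0.12 under the span corrections. TOPBP1, at 0.00, was at -0.05, -0.05 and -0.06 under the 3 scalings and at -0.01, -0.04 and -0.01 without DMSO library 2, BRQ library 2 and BRQ library 3. The ATR to ATRIP ratio moved to -0.14 under the span correction; the cause of these moves was not tested. Of all called genes 59.4% were higher, and 70.5% (4698 higher and 1964 lower) when the span trend was centred on its fitted median. Under scaling by median of ratios, TPM and trimmed means the share was 51.3%, 51.7% and 50.5% (with trimmed means 3346 higher and 3278 lower), so the excess of rises was nearly gone there. Same-numbered libraries deviated together with correlations of 0.14, 0.01 and 0.06, so the numbers were not taken as pairs. With a replicate block 6799 genes and 6 of the 10 passed, in the same directions, and the 4 ratio differences were 1.18, 0.40, 0.29 and -0.44 with an exact sign-flip p of 0.25, the smallest possible. Of the 10 genes, ATRIP in DMSO rests on the fewest fragments by the rough estimate. Whether depth limits the changes was not tested.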
